A study of Mus musculus with 6 samples.

Results

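Olfactory bulb genes were followed through brain RNA of old mice. The group holds 9 of the 38087 genes in the deposited table and was picked by gene symbol. Of these, 4 mark the mitral and tufted cells (Cdhr1, Doc2g, Tbx21 and Eomes), 2 mark olfactory sensory neurons (S100a5 and Omp) and 3 mark interneurons and their precursors (Sp8, Dlx1 and Dlx2). The genes were proposed with the counts of these same libraries in view, so their own levels and fold changes are given as a description and without a test.

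RNA-seq was performed on 3 wild-type (WT) and 3 Sgo1-/+ mice, aged 24 months and untreated, of the strain labelled C57BL6, which the study's methods call C57BL/6-based. Sgo1-/+ mice carry 1 working copy of Shugoshin-1, a protector of chromosome cohesion, in every tissue. The study's methods state that the RNA came from frozen cerebrum with cortex and hippocampus, and that the olfactory bulb, cerebellum and medulla were left out. WT replicate 1 and Sgo1-/+ replicate 2 were male and the other 4 mice were female. All WT libraries share 1 sequencing run and all Sgo1-/+ libraries another, so genotype and run cannot be told apart. The labels give 1 library per mouse and do not say which mice shared a litter or a dissection day.

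The olfactory bulb is the relay for smell. Sensory neurons of the nose send axons into the bulb, where they end in glomeruli on mitral and tufted cells, the neurons that project on to the olfactory cortex. Granule and periglomerular interneurons tune this output, and they are replaced throughout life by neuroblasts that are born in the wall of the lateral ventricle and migrate to the bulb.

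Total estimated counts lay between 11123917 and 12505561 per library. Normalized counts are estimated counts scaled to equal library size by edgeR's TMM method. Counting error alone allows a gene listed at 0 to hold up to 3 counts. Sgo1 itself, listed as Sgol1, had estimated counts of 0, 7 and 0 across the WT libraries (in the order of replicates 1 to 3 here and throughout) and of 4, 2 and 0 across the Sgo1-/+ libraries, too few to detect a difference. Of 16337 genes tested with edgeR's quasi-likelihood test, 0 (0.0%) passed an adjusted p-value of 0.05, and 333 (2.04%) had an unadjusted p-value under 0.05. DESeq2's Wald test gave 3 genes past the adjusted threshold, and edgeR's likelihood ratio test 2. WT replicate 1 stood apart from the other libraries, with the highest count of 9 of 10 brain stem genes, of 8 of 8 cerebellar granule cell genes and of 7 of 7 Purkinje cell genes, and with the lowest count of 10 of 10 cortex genes. Fold changes of the 9 genes are therefore also given without it.

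Among the mitral and tufted cell genes, the highest counts were in WT replicates 2 and 3 and Sgo1-/+ replicate 1. Cdhr1 encodes a cadherin-related protein of mitral and tufted cells (ENSMUSG00000021803, chromosome 14 of mm10, 37077850 to 37098311). The WT libraries held 44.3, 891 and 768 normalized counts of it, and the Sgo1-/+ libraries 432, 121 and 29.7. WT replicate 1 lay below Sgo1-/+ replicates 1 and 2, so the groups overlapped, and the span from the highest to the lowest library was 30.0-fold. In bulk RNA, fewer cells of a type and less RNA per cell cannot be told apart.

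Doc2g belongs to a family of synaptic proteins with C2 domains (ENSMUSG00000024871, chromosome 19, 4003321 to 4007005). Its normalized counts were 28.9, 378 and 348 in the WT replicates and 179, 24.8 and 34.9 in the Sgo1-/+ replicates. The order was much like that of Cdhr1, with 3 high and 3 low libraries and a span of 15.2-fold. In the GENCODE annotation of the same build, 63.5% of its exon bases also belong to ENSMUSG00000024869, which the deposited table lists as Nudt8, on the same strand, so its count is uncertain, since reads of that stretch fit either gene. Nudt8 had 77.1, 235 and 277 normalized counts in WT and 157, 76.4 and 90.6 in Sgo1-/+, and its 3 highest libraries were those of Doc2g.

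Tbx21 encodes a T-box transcription factor that is found in mitral and tufted cells and, outside the brain, in T cells (ENSMUSG00000001444, chromosome 11, 97098071 to 97115331). It had the smallest summed count of the mitral and tufted genes, with 5.54, 51.6 and 43.2 normalized counts in WT and 19.9, 2.03 and 4.09 in Sgo1-/+. The value in Sgo1-/+ replicate 2 stands for 2 estimated counts, which is within the limit for a count of 0. WT replicate 2 was 9.31 times WT replicate 1, a spread within 1 genotype.

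Eomes, also called Tbr2, encodes a T-box factor of mitral and tufted cells and of intermediate progenitors (ENSMUSG00000032446, chromosome 9, 118478212 to 118486132). Its normalized counts were 83.7, 238 and 150 in the WT replicates and 90.4, 8.11 and 4.09 in the Sgo1-/+ replicates. WT replicate 1 was not low for Eomes, unlike for the other 3 mitral and tufted genes, and it nearly matched Sgo1-/+ replicate 1. Unipolar brush cells of the cerebellum also use Eomes, and 5 of 5 other markers of these cells were highest in WT replicate 1, with a summed normalized count of 4952 there against 2119 to 3033 elsewhere. Their part in the Eomes count of that library was not tested.

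The same 3 libraries held the highest counts of all 9 genes, and the start regions of Cdhr1, Eomes and Tbx21 are shown as examples. They are RefSeq promoters of GRCm38.p6, from 250 bases before to 50 bases after the start. Such a sequence was found for 8 of the 9 genes, with none for Omp. Capitals mark matches, on either strand, to any of 5 motifs. The motifs searched were the palindrome bound by EBF factors and a T-box site of the letters AGGTGTGA. The core of homeodomain sites was searched as TAATTA. The GC box bound by Sp factors was searched as GGGCGG, and the TATA element as TATAA.
Cdhr1, chr14:37098298-37098597, minus strand: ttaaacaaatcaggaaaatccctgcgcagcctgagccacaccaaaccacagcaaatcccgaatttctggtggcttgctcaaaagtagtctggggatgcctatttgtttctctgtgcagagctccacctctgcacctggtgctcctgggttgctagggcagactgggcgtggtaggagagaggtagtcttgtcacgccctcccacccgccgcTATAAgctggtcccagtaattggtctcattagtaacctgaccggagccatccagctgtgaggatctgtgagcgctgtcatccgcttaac
Eomes, chr9:118477939-118478238, plus strand: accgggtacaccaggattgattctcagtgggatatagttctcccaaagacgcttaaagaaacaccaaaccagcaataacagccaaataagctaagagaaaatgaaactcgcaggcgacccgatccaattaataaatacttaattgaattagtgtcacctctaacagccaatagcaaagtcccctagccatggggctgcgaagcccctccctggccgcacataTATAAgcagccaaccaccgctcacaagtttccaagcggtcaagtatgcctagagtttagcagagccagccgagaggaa
Tbx21, chr11:97115282-97115581, minus strand: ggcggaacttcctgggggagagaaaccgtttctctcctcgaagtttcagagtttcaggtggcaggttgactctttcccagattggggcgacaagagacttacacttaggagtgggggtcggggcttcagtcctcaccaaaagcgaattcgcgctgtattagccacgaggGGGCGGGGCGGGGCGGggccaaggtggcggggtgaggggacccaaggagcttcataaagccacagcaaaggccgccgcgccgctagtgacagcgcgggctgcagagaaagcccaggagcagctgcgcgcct

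Cdhr1 and Eomes each held 1 TATAA, starting 39 and 28 bases before the start, and Tbx21 held 3 overlapping GC boxes. Of all 32851 RefSeq promoters, 24.9% hold TATAA and 35.7% a GC box, so neither match is rare. No start region of the 8 genes held the EBF palindrome or the T-box site in these letters, which 0.904% and 1.28% of all promoters do.

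For the sensory neuron genes, the same 3 libraries stood out in another order. S100a5 encodes a calcium-binding protein of sensory neurons (ENSMUSG00000001023, chromosome 3, 90608523 to 90611780). It had 4.03, 79.0 and 117 normalized counts in the WT replicates and 90.5, 0 and 6.14 in the Sgo1-/+ replicates. It was at least 38.3-fold higher in WT replicate 3 than in Sgo1-/+ replicate 2, where its count of 0 allows up to 3 counts. Within Sgo1-/+, replicate 1 was 14.7 times replicate 3, a larger ratio than that between the group means of 66.5 in WT and 32.2 in Sgo1-/+.

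Omp encodes the olfactory marker protein of mature sensory neurons (ENSMUSG00000074006, chromosome 7, 98143360 to 98145502). Its normalized counts were 12.1, 37.1 and 199 in the WT replicates, against 180, 6.08 and 14.3 in the Sgo1-/+ replicates. WT replicate 3 and Sgo1-/+ replicate 1 were high and near each other, and WT replicate 3 was 5.35 times WT replicate 2. Omp differed in this from the mitral and tufted genes, of which WT replicate 2 had the highest counts. Omp lies within Capn5 and shares no exon base with it, and Capn5 had between 550 and 645 normalized counts in 5 libraries and 362 in WT replicate 1.

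The interneuron genes are transcription factors that are not confined to the bulb. Sp8 encodes a zinc finger factor of bulb interneurons and of some cortical interneurons (ENSMUSG00000048562, chromosome 12, 118846329 to 118852578). Its normalized counts were 9.38, 243 and 113 in the WT replicates and 97.4, 12.2 and 26.6 in the Sgo1-/+ replicates. Sp8 was low in the same 3 libraries as Cdhr1 and Doc2g, and its highest count was 25.9 times its lowest.

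Dlx1 and Dlx2 are neighbouring homeobox genes of forebrain GABA neurons (ENSMUSG00000041911 and ENSMUSG00000023391, chromosome 2, 71528113 to 71533981 and 71543409 to 71546754). Dlx1 had 18.3, 921 and 673 normalized counts in the WT replicates and 605, 438 and 325 in the Sgo1-/+ replicates. Dlx2 had 7.05, 200 and 119 normalized counts in the WT replicates and 135, 60 and 52.0 in the Sgo1-/+ replicates. Both were lowest in WT replicate 1, and Sgo1-/+ replicates 2 and 3, where the mitral and tufted genes were low, kept 0.475 and 0.353 of the Dlx1 count of WT replicate 2. For Cdhr1 these ratios were 0.136 and 0.0333. Dlx1as, an antisense gene that shares 335 exon bases with Dlx1, was also lowest in WT replicate 1, with 10.1 normalized counts against 60.8 to 112 in the others.

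**Figure D1:**
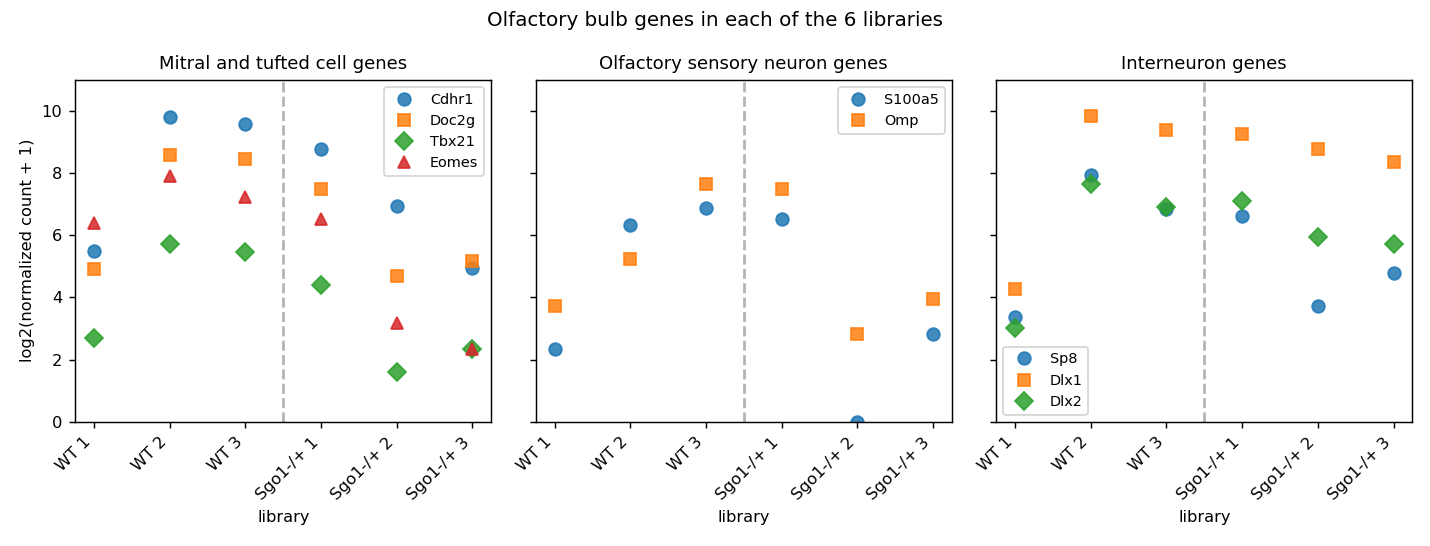
Normalized counts of the 9 genes in each library, as log2(normalized count + 1), with WT left and Sgo1-/+ right of the dashed line and 1 symbol per gene. Cdhr1 lies at 891 and 768 in WT replicates 2 and 3 and at 432 in Sgo1-/+ replicate 1, above its counts in the other libraries, and Dlx1 falls to 18.3 in WT replicate 1.

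In all 9 genes the 3 highest libraries were WT replicates 2 and 3 and Sgo1-/+ replicate 1, an order seen in 6.32% of the 16337 tested genes. This order was noticed in the counts of genes chosen with these counts known, so no weight is given to the share. WT replicate 2 was highest for 7 genes and WT replicate 3 for S100a5 and Omp. The lowest library was Sgo1-/+ replicate 2 for 4 genes (Doc2g, Tbx21, S100a5 and Omp), Sgo1-/+ replicate 3 for 2 (Cdhr1 and Eomes) and WT replicate 1 for 3 (Sp8, Dlx1 and Dlx2). The gap between the lowest of the 3 high libraries and the highest of the 3 low ones was 12.9-fold for S100a5, 5.12-fold for Doc2g and 3.56-fold for Cdhr1, but only 1.08-fold for Eomes, 1.38-fold for Dlx1 and 1.99-fold for Dlx2.

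Per exon length and library size, as RPKM, the levels could be set against each other within a library. In WT replicate 2, the RPKM of Cdhr1 (17.0), S100a5 (15.2) and Dlx1 (14.1) was followed by that of Doc2g (10.3), Dlx2 (5.81), Eomes (4.75) and Sp8 (4.43), with Tbx21 (1.72) and Omp (1.43) last. In Sgo1-/+ replicate 2, Dlx1 stood first with an RPKM of 6.72, ahead of Cdhr1 with 2.32 and Dlx2 with 1.74, and the other 6 genes were at 0.677 or lower. S100a5 was first in WT replicate 3 (22.3) and Sgo1-/+ replicate 1 (17.3). S100a5 has 432 exon bases, so its 117 normalized counts make a high level per length. The order of neighbours such as Eomes and Sp8 changed between libraries, so it is not larger than the spread.

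The comparison of Sgo1-/+ with WT asks how RNA levels differ in the brain of the haploinsufficient mouse. The group means of all 9 genes were lower in Sgo1-/+, and none of the 9 separated the groups, while 6.85% of all tested genes did so in either direction. WT replicates 2 and 3 both lay above every Sgo1-/+ library for Cdhr1, Doc2g, Tbx21, Eomes, Sp8 and Dlx1, so there the overlap came from WT replicate 1. For S100a5, Omp and Dlx2 they did not. The share of all tested genes with that arrangement was not counted. For Cdhr1 the WT libraries averaged 568 ± 457 normalized counts (SD, n = 3) and the Sgo1-/+ libraries 194 ± 211 (SD, n = 3), and its log2 fold change was -1.54 (SE 1.15). Eomes had the lowest log2 fold change, -2.19 (SE 0.999), its WT libraries averaging 157 ± 77.5 normalized counts (SD, n = 3) and its Sgo1-/+ libraries 34.2 ± 48.7 (SD, n = 3). Of the 9 genes, 6 had a log2 fold change of -1 or lower, as 1.42% of all tested genes did, and all 9 were below 0, as were 50.2% of all tested genes. Tbx21 had -1.94 (SE 0.966) and Doc2g -1.66 (SE 1.03) on the same log2 scale. The median over these 4 genes was -1.80, against -0.001 over all tested genes. The genes were chosen with these counts known, so no weight is given to these shares or to the gap between the medians.

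The log2 fold changes of S100a5 (-1.04, SE 1.45) and Omp (-0.30, SE 1.33) each came with an SE above their own size. Sp8 had -1.42 (SE 1.09), while Dlx1 (-0.24, SE 0.988) and Dlx2 (-0.40, SE 0.917) lay near 0 with a wide error. Dlx1 averaged 537 ± 466 normalized counts (SD, n = 3) over the WT libraries, or 797 when replicate 1 was left out, and 456 ± 141 (SD, n = 3) over the Sgo1-/+ libraries.

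A single library moved these values far. Without Sgo1-/+ replicate 1, the log2 fold change became -2.90 for Cdhr1, -4.66 for Eomes, -4.39 for S100a5 and -3.0 for Omp. Without WT replicate 1 it was -2.09 for Cdhr1, -2.19 for Doc2g, -2.43 for Tbx21 and -2.49 for Eomes. That fit gave -1.59 for S100a5, -0.81 for Omp, -1.97 for Sp8, -0.80 for Dlx1 and -0.96 for Dlx2. The sign of Omp turned to 1.44 without WT replicate 3, to 0.24 without Sgo1-/+ replicate 2 and to 0.18 without Sgo1-/+ replicate 3, and without WT replicate 2 the signs of Dlx1 (0.40) and Dlx2 (0.38) turned. Cdhr1, Doc2g, Tbx21, Eomes, S100a5 and Sp8 stayed negative in each fit that left out a library. In the female libraries alone, a comparison added after the values were seen, the log2 fold change was -1.84 for Cdhr1, -2.03 for Eomes, -0.27 for Omp and -0.78 for Dlx1. The male libraries are 1 against 1, and there Cdhr1 was 44.3 in WT and 121 in Sgo1-/+, against 83.7 and 8.11 for Eomes.

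**Figure D2:**
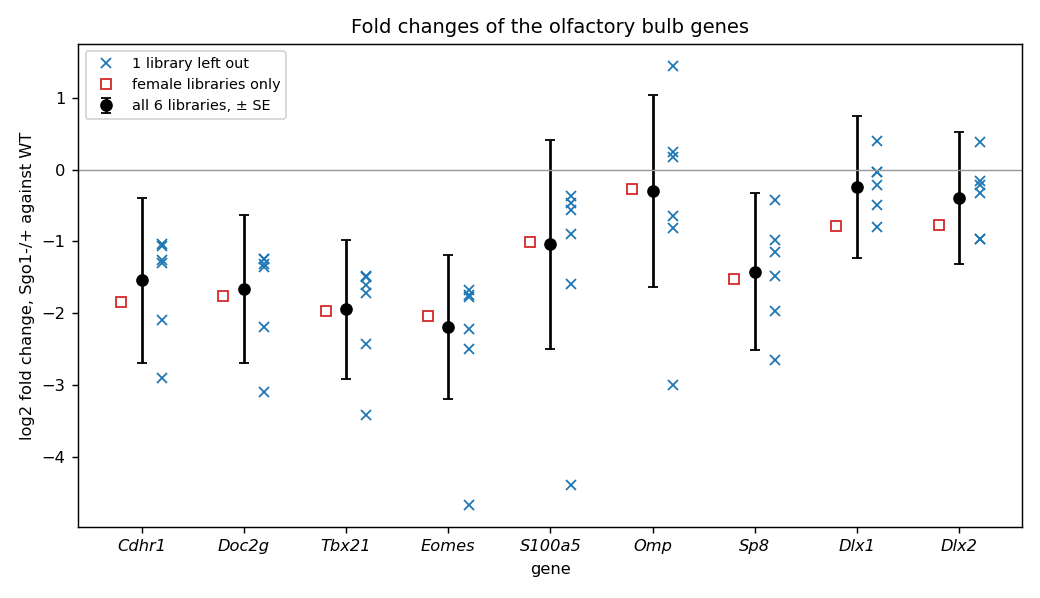
Log2 fold change of Sgo1-/+ against WT for the 9 genes (y axis), as black points with the SE for all 6 libraries, blue crosses for fits without 1 library and red squares for the female libraries. Eomes runs from -1.67 to -4.66 over the fits without 1 library, and the crosses of Omp, Dlx1 and Dlx2 lie on both sides of 0.

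Other genes of the same cell types were taken from 4 lists, with 51 genes in all, of which 46 were tested. These lists, too, were written with earlier results of the libraries known. Of the 46 genes, 0 passed the adjusted threshold in edgeR's quasi-likelihood test. An unadjusted p-value under 0.05 in that test was found for 4 of the 46, against 2.04% of all tested genes. These 4 (Barhl2, Pax6, Calb2 and Tpbg) all had their highest count in WT replicate 1. The median log2 fold change over the 46 genes was -0.21, with 30 of 46 below 0. The groups did not overlap for 3 genes that were lower and 1 that was higher in Sgo1-/+, where 3.57% and 3.28% of all tested genes did so.

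Among 10 further genes of mitral and tufted cells, 7 had a negative and 3 a positive log2 fold change, with a median of -0.77. The lowest values were those of Lhx1 (-3.03, SE 1.5, unadjusted p = 0.0842) and Barhl2 (-2.02, SE 0.848, unadjusted p = 0.0494), both homeobox factors, with an adjusted p of 0.9999 in edgeR's quasi-likelihood test. Their highest counts were in WT replicate 1, with 358 for Lhx1 and 92.9 for Barhl2, against 4.25 to 17.2 and 3.07 to 23.2 elsewhere, and without that library the log2 fold change was 1.04 for Lhx1 and -0.86 for Barhl2. Shisa3, a membrane protein gene of the same list, had the same 3 highest libraries as Cdhr1 instead. It had 34.3, 257 and 180 normalized counts in the WT replicates and 75.6, 12 and 30.6 in the Sgo1-/+ replicates, a log2 fold change of -1.99 (SE 0.839, unadjusted p = 0.0501). Tbr1, which mitral cells share with cortical neurons, had 48.7 normalized counts in WT replicate 1, whereas 913 to 1359 were found elsewhere.

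Of 14 further sensory neuron genes, 9 were tested, 4 of them with negative and 5 with positive log2 fold changes (median 0.02). The leading values were those of Gng13, a G protein subunit (-1.17, SE 0.626), and Stoml3, a membrane protein gene (-0.92, SE 0.720), with unadjusted p-values of 0.105 and 0.243 in edgeR's quasi-likelihood test. Both rested on 1 library, since Gng13 had -0.05 without WT replicate 1 and Stoml3 -0.21 without WT replicate 3. Gng13 was highest in WT replicate 1 (821), whereas Stoml3 was highest in WT replicate 3 (56.6) and lowest in Sgo1-/+ replicate 2 (4.05). Adcy3, the adenylyl cyclase of odorant signalling and of neuronal cilia, was the gene with higher counts in each Sgo1-/+ library, 651 to 792 against 507 to 642 in WT (log2 fold change 0.33, SE 0.143, unadjusted p = 0.0545). Cnga2, a subunit of the cyclic nucleotide-gated channel of sensory neurons, did not pass the filter and had at most 6.95 normalized counts in any library.

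Of 22 further interneuron and neuroblast genes, 17 had a negative and 5 a positive log2 fold change (median -0.29). Calb2, which encodes calretinin, had 2346, 1229 and 734 normalized counts in the WT replicates and 710, 478 and 236 in the Sgo1-/+ replicates. The groups did not overlap, although the margin between 734 and 710 was small, and the log2 fold change was -1.60 (SE 0.519, unadjusted p = 0.0182, adjusted p = 0.9999). Calb2 is also a gene of cerebellar cells, and without WT replicate 1 its log2 fold change was -1.05. Pax6 (-0.92, SE 0.256) and Tpbg (-0.62, SE 0.208), which bulb interneurons use, also had no overlap, with unadjusted p-values of 0.00892 and 0.0214 and adjusted p-values of 0.9999 in the edgeR test. Both were highest in WT replicate 1. Pax6 had 614 normalized counts there against 200 to 381 elsewhere, and Tpbg 328 against 137 to 257. Without that library the log2 fold changes of Pax6 and Tpbg were -0.61 and -0.48. Pax6, Tpbg, Adcy3, Tbr1, Cnga2, Dcx, Sp9 and the other Dlx genes were named after their values were seen. Th, the rate-limiting enzyme of dopamine synthesis and a mark of periglomerular cells, had 109, 241 and 280 normalized counts in WT and 183, 65.9 and 36.0 in Sgo1-/+.

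The Dlx partners Dlx5 and Dlx6, the noncoding Dlx6os1 and Sp9 had their lowest counts in WT replicate 1, as Dlx1 and Dlx2 did. Dlx5 had 4.03 normalized counts there and between 43.5 and 160 elsewhere. Dcx, the microtubule protein of migrating neuroblasts, had 176, 1064 and 745 normalized counts in WT and 513, 387 and 312 in Sgo1-/+, with a log2 fold change of -0.71 (SE 0.573). Among 5 genes of olfactory ensheathing glia, which wrap the sensory axons, Fabp7 had -0.78 (SE 0.408) and Npy 0.68 (SE 0.597), or 0.22 for Npy without WT replicate 1, and 0 had an unadjusted p-value under 0.05. Of the 46 genes, 14 (30.4%) had WT replicates 2 and 3 and Sgo1-/+ replicate 1 as their highest libraries, 10 of them on the interneuron list. Over all tested genes the share was 6.32%. The lists were written with earlier results of these libraries known, so no weight is given to either share.

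**Figure D3:**
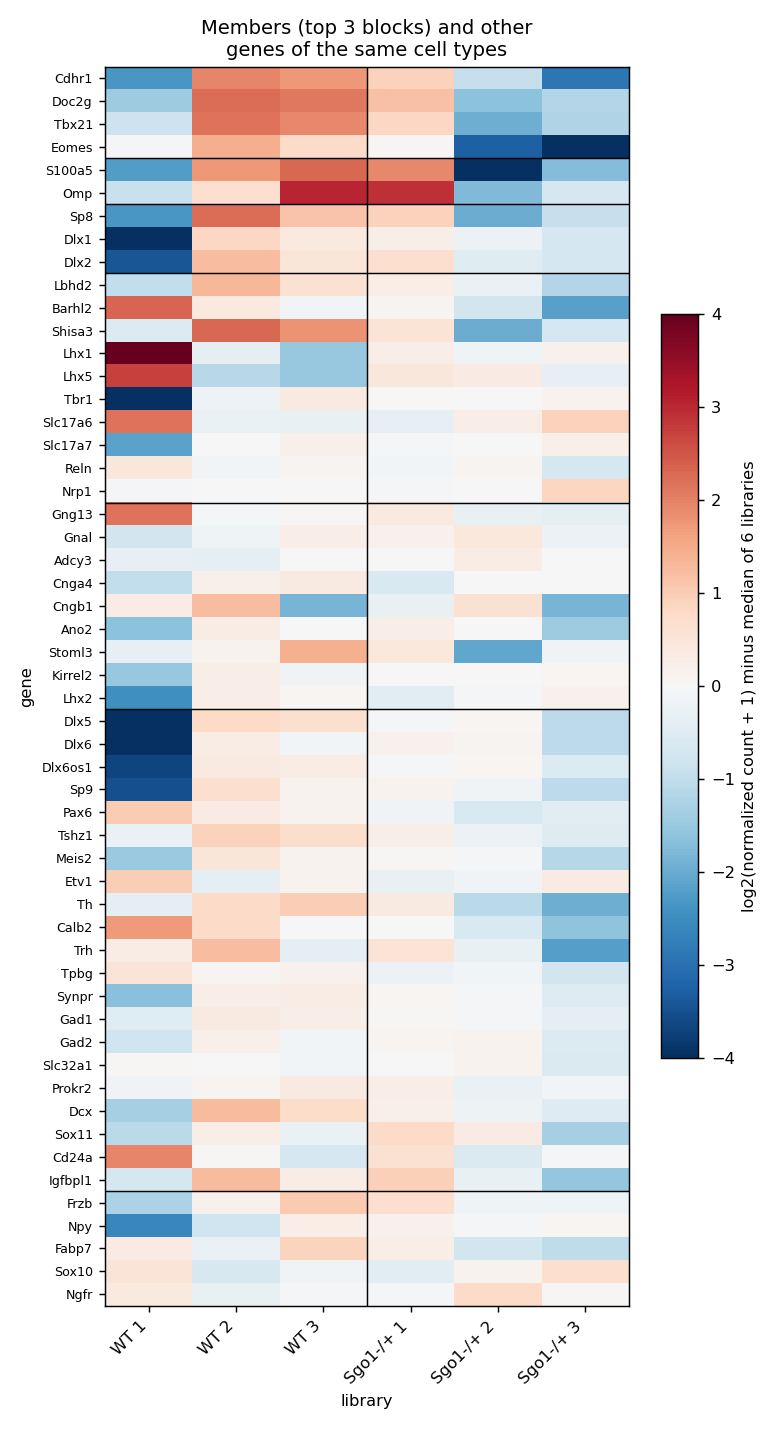
Each row is a gene (45 of the 46 tested genes of the lists, below the 9) and each column a library, and colour gives log2(normalized count + 1) minus the gene's median over the 6 libraries, cut at 4 in either direction. The 9 genes of the top 3 blocks are red in WT replicates 2 and 3, while Lhx1 is red in WT replicate 1 (358) and Dlx5 is blue there (4.03).

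The genes most like the 4 mitral and tufted genes were sought by Pearson's r over the 6 libraries between log2(normalized count + 1) and the mean of Cdhr1, Doc2g, Tbx21 and Eomes, among 1459 tested genes with a log2 range of at least 2. The values are a description over 6 libraries that share high and low libraries. Ms4a15 and Frmd7 led with r = 0.979, followed by Gmfg (0.963), Th (0.961) and Fam19a3 (0.949). Shisa3, Rhcg, Iigp1, Alox5ap and Klhl30 had r between 0.933 and 0.939. Gmfg, Fam19a3, Rhcg and Klhl30 had at most 20.9, 27.6, 26.0 and 27.6 normalized counts in any library. Their r therefore rests on few counts. Ms4a15 had 118, 98.5 and 26.8 normalized counts in WT replicates 2 and 3 and Sgo1-/+ replicate 1 and was listed at 0 in the other 3 libraries. Frmd7 had 11.1, 392 and 148 in the WT replicates and 62.8, 11 and 4.65 in the Sgo1-/+ replicates, the same rank order as the mean of the mitral and tufted genes.

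Of the other region lists, none had its 3 highest sums in WT replicates 2 and 3 and Sgo1-/+ replicate 1. The summed normalized count of the 4 mitral and tufted genes was 162, 1559 and 1309 in the WT replicates and 721, 156 and 72.8 in the Sgo1-/+ replicates. The 10 cortex genes, among them Rasgrf2 and Lmo4, summed to 3378 in WT replicate 1 and reached 8690 to 9822 elsewhere, and in no library was a cortex gene at or under 3 counts. Over the 9 striatum genes, among them Ppp1r1b and Pde10a, the sum was 4457, 18879 and 24229 in WT and 30094, 35874 and 15114 in Sgo1-/+, and all 9 were highest in Sgo1-/+ replicate 2. The striatum also holds Dlx-expressing neurons, and in WT replicate 1 both the striatum sum and Dlx1 were lowest. Elsewhere their orders differed, with the highest striatum sum in Sgo1-/+ replicate 2 and the highest Dlx1 count (921) in WT replicate 2. In Sgo1-/+ replicate 3, 8 of 9 hippocampus genes and 5 of 6 choroid plexus genes were highest. The 8 granule cell genes (Zic1 and Cbln3 leading) summed to 17597 in WT replicate 1 and to at most 1513 elsewhere, and the 7 Purkinje cell genes to 32976 against 11269 to 14478. The 10 brain stem genes summed to 4424 in WT replicate 1, while in each other library 7 or 8 of them were at or under 3 counts. The 9 cortical interneuron genes (Lamp5 and Sst leading) summed to between 6072 and 8704 in all 6 libraries, but 5 of the 9 were lowest in WT replicate 1. Pvalb had 4260 normalized counts there and 383 to 1211 elsewhere, and Lhx6 10.1 against 209 to 421, both named after their values were seen. The part of these regions in the counts of the bulb genes was not tested.

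**Figure D4:**
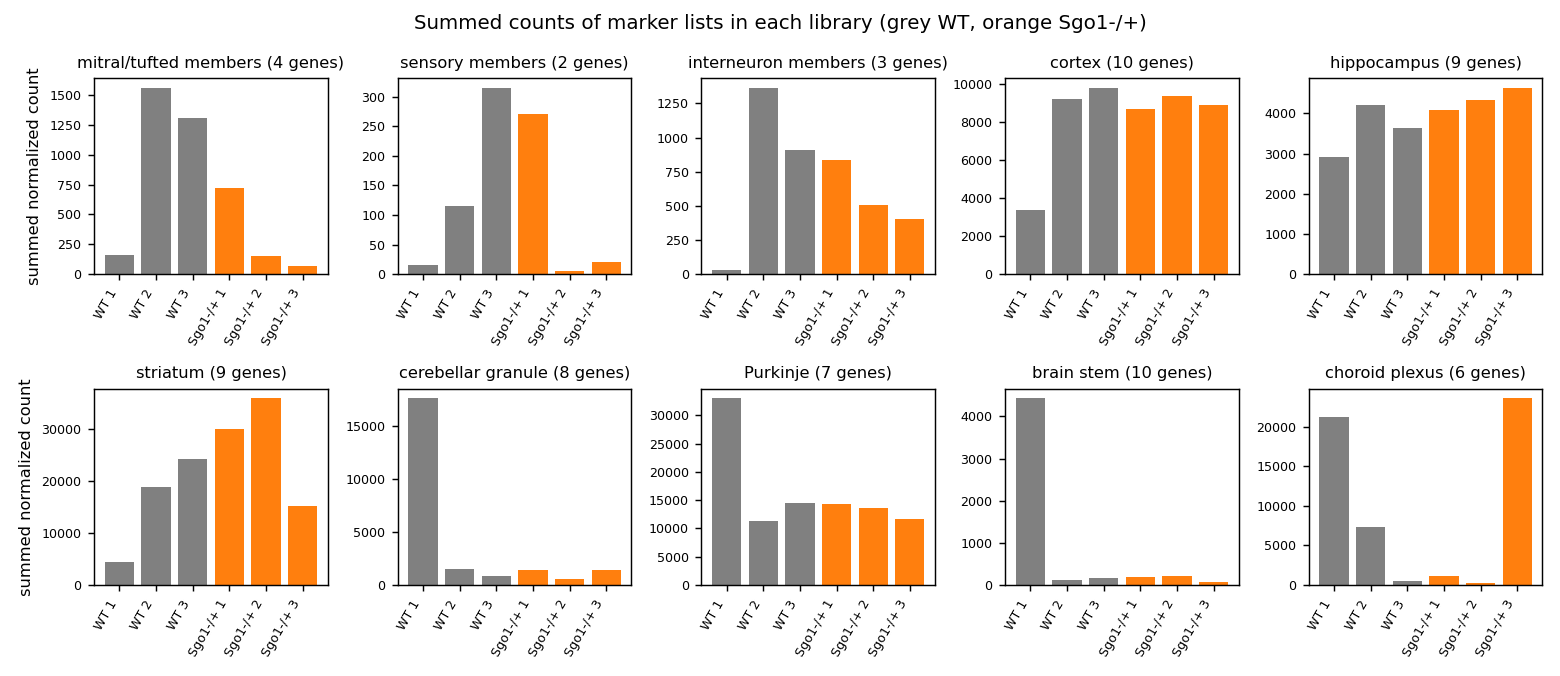
Summed normalized counts (y axis, from 0) of 10 gene lists in each library, WT in grey and Sgo1-/+ in orange, over the genes that no other list holds. The mitral and tufted genes reach 1559 in WT replicate 2 and 72.8 in Sgo1-/+ replicate 3, while the cortex sum is similar in 5 libraries and lowest, at 3378, in WT replicate 1.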

How the data were processed

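RNA-seq was performed on 3 WT and 3 Sgo1-/+ brains with 1 library each. The authors aligned paired reads to mouse mm10 with Strand NGS 2.1 and deposited estimated counts per Ensembl gene, of which 47.4 to 48.6% per library were not whole. BWA and edgeR also stand in the submitters' processing notes. The authors deposited log2 values too, made by DESeq normalization with each gene's median subtracted, and columns of their own comparison as a log2 fold change, a signed score and a ratio; none of these gave a result here. The log2 fold change column was read only to see which columns were WT, and the column names gave the replicate numbers. Whether counting used the strand is not given in the sources used here.

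The counts were rounded to whole numbers. The quasi-likelihood test of edgeR 4.0.16 was run with TMM scaling (default filter on low counts, no covariates, 16337 genes, Benjamini-Hochberg adjustment). All 9 members passed the filter. The SE is the log2 fold change divided by the square root of F. The fit was tested on simulated counts. 1 gene of the interneuron list is counted but not reported here. Members and lists were chosen with earlier results of these data known. Named genes are the members, Sgo1, genes overlapping members, of each other bulb list those without overlap and at least 2-fold or otherwise the 2 with the largest change, up to 2 leading genes of each region list, and the 10 most alike; others were named after their values were seen. Of the motifs, TATAA was added after the sequences were seen. Gene overlaps came from GENCODE M21 and sequences from RefSeq GRCm38.p6. Alternatives used DESeq2 1.42.0, limma 3.58.1, other scalings and filters, sex, the replicate block and each library left out. The labels do not tie libraries to litters or dissection days. The p-values set the difference between groups against the spread of these 6 libraries within their groups. That difference holds genotype and sequencing run together. An exact permutation test of 3 against 3 libraries cannot give p below 0.1, so none was run. RPKM values were computed here from these counts and GENCODE exon lengths.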

Additional observations from a re-analysis of the deposited data

Results flagged for a closer look

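Among the 9 genes and the 12 other bulb genes that were refitted under each alternative, there were 4 for which both female Sgo1-/+ libraries lay on one side of both female WT libraries while the male Sgo1-/+ library (replicate 2) lay on the other side of the male WT library (replicate 1), and the difference between the sexes was not tested. The log2 ratio of Sgo1-/+ to WT was 1.45 in the male pair and -1.85 between the female means for Cdhr1, 0.37 and -1.52 for Sp8, and 4.58 and -0.78 for Dlx1. For Lhx1 it was -4.88 in the male pair and 1.18 in the females. The only WT male is WT replicate 1, so sex and that library cannot be told apart. Further bulb genes outside these, such as Dlx5 and Dcx, had the same arrangement as Dlx1.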

How the results depend on the processing

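The number of genes past the adjusted threshold was 0 with edgeR's quasi-likelihood test, and 333 had an unadjusted p-value under 0.05. It was 3 with DESeq2's Wald test, 2 with edgeR's likelihood ratio test, between 0 and 1 with 1 library left out (1 without Sgo1-/+ replicate 2) and 1 in the female libraries, an alternative chosen after seeing the data. None of the other bulb genes was called in any alternative. The median log2 fold change of the mitral and tufted genes was between -3.25 and -1.37 in all 15 alternatives that could be fitted. The median of the interneuron genes turned to 0.39 with limma after DESeq scaling and log2 (pseudocount of 1) and to 0.13 with sex as a covariate, and ranged from -0.96 to 0.38 with 1 library left out. The median of the sensory neuron genes ranged from -3.70 without Sgo1-/+ replicate 1 to 0.54 without WT replicate 3. The cause of these changes was not tested. Single genes that changed sign were Dlx1 (0.95 in limma, 0.46 with sex, 0.32 with the replicate block, and -0.80 to 0.40 with 1 library left out, positive without WT replicate 2), Dlx2 (0.39, 0.13 and 0.38 in limma, with sex and without WT replicate 2), Omp (-3.0 to 1.44 with 1 library left out, with 1.44, 0.24 and 0.18 without WT replicate 3 and Sgo1-/+ replicates 2 and 3), Lhx1 (-3.59 to 1.04 with 1 library left out, positive without WT replicate 1, and 1.17 in females) and Gng13 (0.07 in females).

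The replicate numbers share no stated origin. Same-numbered libraries had correlations of their deviations from the group means of -0.146, 0.014 and -0.207, and other pairs had -0.229 to 0.295. These values show no pairing by number, but they cannot exclude a shared litter or dissection day. With the replicate block, edgeR's quasi-likelihood test gave 0 genes past the adjusted threshold and 280 with an unadjusted p-value under 0.05, and the medians were -1.98, -1.79 and -0.10 for the mitral and tufted, sensory neuron and interneuron genes. With at least 10 counts in every library, the medians could not be fitted, since 6 members were removed. Low counts limit Tbx21 and S100a5, which had 2 and 0 estimated counts in Sgo1-/+ replicate 2.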
